A study of Homo sapiens with 6 samples.

Results

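The kinesin family genes examined here are the 42 rows, of 20532 in the deposited count table, whose gene name is KIF or KIFC followed by a number. They were chosen by name alone. Roles were assigned by hand, with earlier results of these data known. By this assignment 14 are mitotic motors and 15 carry cargo along microtubules in interphase cells. A further 6 act in cilia or Hedgehog signalling and 7 have other or mixed roles. RNA had been sequenced from ACHN, a human renal carcinoma line that the labels assign to clear cell renal cell carcinoma of the kidney. All 6 libraries came from cells stably transduced with a lentiviral short hairpin RNA. In 3 of them (shCtrl 1, 2 and 3) the hairpin was a negative control, and in the other 3 (shDNAJC2 1, 2 and 3) it targeted DNAJC2, which encodes a ribosome-associated co-chaperone. Nothing states whether the replicates came from separate transductions, from clones or from mixed cultures, so p-values measure only the spread between these libraries.

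Kinesins are motor proteins that hydrolyse ATP to walk along microtubules or to take microtubule ends apart. Mitotic kinesins build the spindle, move and align chromosomes and complete cytokinesis, and their mRNAs are made mainly in the G2 and M phases of the cell cycle. Transport kinesins move vesicles, mitochondria, lysosomes and RNA, and are made whether or not a cell divides. Cell-cycle promoters of the first kind often carry a cell cycle genes homology region (CHR), bound by the DREAM and MuvB complexes, next to CCAAT boxes bound by NF-Y.

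Total counts ranged from 17491462 to 25760291 per library. DNAJC2 was at 76.7, 69.8 and 86.5 CPM (counts per 1000000 counts of the library, TMM-normalized) in shCtrl 1, 2 and 3, and so was highest in shCtrl 3. It lay between 38.5 and 51.2 CPM in the knockdown, without overlap. The groups likewise did not overlap, with the knockdown lower, in 8.43% of the 13988 genes tested. The adjusted p of DNAJC2 in the edgeR test described below was 0.429. The library shCtrl 3 lay apart from the other controls on the first principal component, which held 79.4% of the variance, and was nearest to shDNAJC2 2 on it (36.1 against 34.6). The library shDNAJC2 3, at −1.40, also lay apart from shDNAJC2 1 and shDNAJC2 2 (34.3 and 34.6), between them and shCtrl 1 and shCtrl 2 (−52.6 and −51.0). Results below are also given without shCtrl 3, a choice made with its values known. Where shCtrl 3 lay near the knockdown level, leaving it out widens the difference between the groups by construction. That fit is therefore no separate support for an effect of the knockdown. Of 11 renal epithelial markers only 5 reached 1 CPM in every library (PAX8, KRT8, KRT18, CDH6 and CA12), and the list summed to 193 to 269 CPM in the controls and 179 to 188 CPM in the knockdown. PAX2, CDH16 and CDH1 had at most 1 count in any library, which allows up to 0.115 to 0.179 CPM for a count of 0. All 7 fibroblast markers reached 1 CPM in every library, with a summed level of 1152 to 4363 CPM in the controls and 1066 to 1772 CPM in the knockdown. Of the blood and immune markers 3 of 8 were at 0 in every library and the list summed to 2.34 to 4.35 CPM in the controls and 3.34 to 4.25 CPM in the knockdown. Of the 5 endothelial markers CDH5 was at 0, while TEK (49.9 to 71.2 CPM) made up most of a sum of 57.8 to 72.3 CPM in the controls and 56.0 to 57.9 CPM in the knockdown. The part of these markers in the kinesin values was not tested.

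Of the 42 kinesins, 34 passed the low-count filter and were tested. All 3 knockdown libraries lay below shCtrl 1 and below shCtrl 2 for each of the 12 tested mitotic kinesins, and so did shCtrl 3. The share of all genes that did so was not taken, so this count has no background beside it. Of the 14 tested transport kinesins, 9, 10 and 8 lay below both controls in shDNAJC2 1, 2 and 3. In the same libraries 4, 4 and 6 of the 14 lay above both. In shCtrl 3 the mitotic kinesins were at or near the knockdown level, so that over all 6 libraries the groups overlapped for each of them. Yet shCtrl 3 had the most DNAJC2 of all 6 libraries (86.5 CPM). The cause of its low mitotic kinesin level was not tested. edgeR's quasi-likelihood test called 0 of the 34 at an adjusted p under 0.05 over all 6 libraries, as it called 0% of all 13988 genes, and the smallest adjusted p among the kinesins was 0.429. limma-voom called 0 of them. DESeq2 gave an adjusted p for 26 of the 34 and called 0 of those, where it called 0.293% of the 9903 genes with an adjusted p lower. At an unadjusted p under 0.05, 7 kinesins were lower, beside 7.33% of all genes, and 1 was higher, beside 4% of all genes. The 7 were KIF20A, KIFC1, KIF18B, KIF2C, KIF7, KIF3C and KIF1C, and the 1 was KIF2A. Without shCtrl 3, 17 kinesins fell and 3 rose in edgeR after adjustment over all 14201 genes tested, where 17% of all genes fell and 17.8% rose. Those 17 comprise the 12 tested mitotic kinesins, the transport kinesins KIF5A, KIF1B and KIF3C, and the ciliary and Hedgehog genes KIF7 and KIF24.

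**Figure D1:**
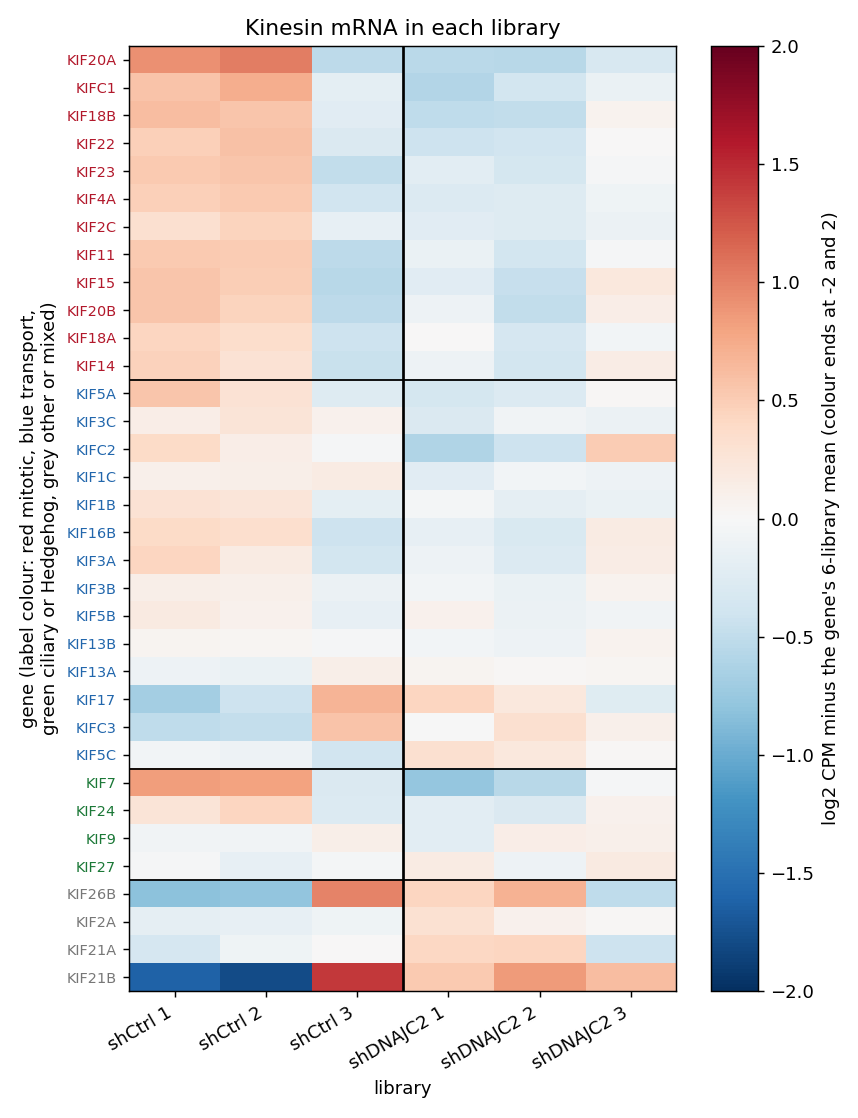
Each row is 1 of the 34 tested kinesins, each column a library, and the colour is the log2 CPM minus that gene's mean over the 6 libraries. The 12 mitotic rows (red labels) are red in shCtrl 1 and shCtrl 2 and blue or pale in the other 4 libraries, while KIF21B and KIFC3 show the opposite pattern.

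The tested mitotic kinesins had a median log2 fold change of −0.45 over all 6 libraries, with 12 of 12 negative, where 52.3% of all tested genes were negative and the median of all was −0.02. The range ran from −1.08 for KIF20A to −0.25 for KIF14. These counts depend on the assignment of roles. KIF2A, which also works in spindles, was placed among the other or mixed kinesins and had a log2 fold change of 0.29. Without shCtrl 3 all 12 fell, with a median of −0.69. In bulk RNA, fewer cells in mitosis and less of an mRNA per mitotic cell cannot be told apart.

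The motors of cytokinesis included the widest difference. KIF20A (chromosome 5, 138178719 to 138187715 on GRCh38) carries the chromosomal passenger complex to the central spindle. It had 222, 237 and 81.3 CPM in the control libraries (1, 2, 3) against 81.0, 79.8 and 94.3 CPM in the knockdown libraries. So shCtrl 3 stood among the knockdown libraries, at 35.4% of the mean of the other controls, against 37.0% for the knockdown mean. The log2 fold change of KIF20A was −1.08 (95% interval −1.98 to −0.19) over all libraries, with an adjusted p of 0.429 in edgeR. Without shCtrl 3, the control at the knockdown level, the fitted log2 fold change was −1.43 (95% interval −1.67 to −1.19).

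KIF23 (chromosome 15, 69414246 to 69448427) encodes the motor subunit of centralspindlin, which bundles midzone microtubules. It was at 165, 169 and 81.8 CPM with the control hairpin against 98.5, 89.6 and 112 CPM with the DNAJC2 hairpin. Here shCtrl 3 was the lowest of all 6 libraries. KIF4A, which shortens and organises midzone microtubules together with PRC1, was at 120.2, 124 and 65.9 CPM with the control hairpin against 71.0, 72.0 and 81.0 CPM with the DNAJC2 hairpin. KIF14, which recruits citron kinase to the midbody, was at 52.6, 46.6 and 28.0 CPM against 35.4, 29.3 and 42.3 CPM. KIF20B, another motor of the cytokinetic bridge, was at 74.3, 68.6 and 35.1 CPM against 47.0, 35.8 and 55.6 CPM. In all 4 of these genes shCtrl 3 lay below every knockdown library. Without it they fell by 0.73, 0.70, 0.47 and 0.62 on the log2 scale, in that order. KIF4B, an intronless copy of KIF4A, had 1 to 5 counts per library and was not tested, and how the counting treated reads that match both genes is not given in the sources used here.

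The motors of spindle assembly were also highest in shCtrl 1 and shCtrl 2. KIF11 (chromosome 10, 92593286 to 92655395), the bipolar motor that pushes spindle poles apart, was at 143, 142 and 69.2 CPM with the control hairpin against 90.3, 77.3 and 97.7 CPM with the DNAJC2 hairpin. KIF15, which can stand in for it, was at 42.5, 40.8 and 19.7 CPM against 24.8, 21.0 and 33.6 CPM. Both were lowest in shCtrl 3, and both were higher in shDNAJC2 3 than in the other knockdown libraries. KIFC1 (chromosome 6, 33391536 to 33409924), a minus-end motor that draws poles together and clusters extra centrosomes, was at 150.4, 167 and 88.7 CPM against 67.9, 78.5 and 92.8 CPM. Its shCtrl 3 value lay within the range of the knockdown. Its log2 fold change was −0.76 (95% interval −1.35 to −0.17, adjusted p = 0.429 in edgeR), and it fell by 0.99 without shCtrl 3. In GENCODE 29, 12.7% of the exonic bases of KIFC1 are shared with the pseudogene RPL12P1 on the other strand.

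The motors that position chromosomes and trim microtubules again had their highest values in shCtrl 1 and shCtrl 2. KIF2C, a depolymerase that corrects faulty kinetochore attachments, was at 181, 198 and 129 CPM with the control hairpin against 123, 121 and 133 CPM with the DNAJC2 hairpin. KIF18A, which damps the oscillations of aligned chromosomes, was at 52.1, 49.3 and 28.997 CPM against 38.7, 30.6 and 36.9 CPM. Again shCtrl 3 sat with or below the knockdown libraries. KIF18B, a depolymerase of astral microtubules (chromosome 17, 44924709 to 44947711), was at 92.4, 88.5 and 51.5 CPM against 42.5, 43.1 and 63.5 CPM. KIF22, which pushes chromosome arms outward, was at 163, 176 and 96.2 CPM against 87.9, 89.7 and 118 CPM. For these 2 genes shDNAJC2 1 and shDNAJC2 2 were the lowest libraries, below shCtrl 3. Without shCtrl 3 the falls were 0.59 for KIF2C, 0.51 for KIF18A, 0.86 for KIF18B and 0.78 for KIF22. KIF2B had 0 counts in every library.

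A promoter window from 250 bases before to 50 bases after the start was found for 34 of the 42 kinesins among RefSeq sequences (GRCh38.p14), and 7 of them have more than 1 window. The CHR was searched as TTTGAA on both strands, its variant as TTTAAA, which reads the same on both strands, and the NF-Y box as CCAAT on both strands. No motif overlaps another in the windows printed. The windows of KIF20A, KIFC1 and KIF18B, the 3 mitotic kinesins with the most negative log2 fold changes, are shown with those of KIF4A and of KIF5B and KIF1C, abundant transport kinesins, all chosen after their values were seen. Each runs 5′ to 3′ on the gene's own strand, from 150 bases before the start to 20 bases after it, with every match to a searched motif in capitals. The windows are chr5:138178962-138179131 (plus strand), chr6:33391673-33391842 (plus), chr17:44947754-44947923 (minus), chrX:70289954-70290123 (plus), chr10:32056406-32056575 (minus) and chr17:4997800-4997969 (plus).
KIF20A: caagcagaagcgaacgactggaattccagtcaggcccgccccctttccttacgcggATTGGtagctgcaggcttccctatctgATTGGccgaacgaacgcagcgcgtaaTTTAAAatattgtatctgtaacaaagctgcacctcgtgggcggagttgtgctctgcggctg
KIFC1: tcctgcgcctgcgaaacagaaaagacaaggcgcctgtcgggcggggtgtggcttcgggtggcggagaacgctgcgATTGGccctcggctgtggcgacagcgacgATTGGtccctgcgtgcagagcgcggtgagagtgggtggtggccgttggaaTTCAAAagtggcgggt
KIF18B: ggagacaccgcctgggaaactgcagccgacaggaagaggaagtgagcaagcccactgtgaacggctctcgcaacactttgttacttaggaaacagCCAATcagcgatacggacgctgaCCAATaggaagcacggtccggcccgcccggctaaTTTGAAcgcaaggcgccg
KIF4A: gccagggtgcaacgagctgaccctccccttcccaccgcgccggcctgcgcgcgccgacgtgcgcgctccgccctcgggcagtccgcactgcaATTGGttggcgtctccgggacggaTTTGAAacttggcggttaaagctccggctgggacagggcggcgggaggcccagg
KIF5B: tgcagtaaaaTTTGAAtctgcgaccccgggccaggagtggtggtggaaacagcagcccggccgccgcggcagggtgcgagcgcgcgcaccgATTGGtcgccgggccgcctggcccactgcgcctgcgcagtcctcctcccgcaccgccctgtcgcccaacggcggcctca
KIF1C: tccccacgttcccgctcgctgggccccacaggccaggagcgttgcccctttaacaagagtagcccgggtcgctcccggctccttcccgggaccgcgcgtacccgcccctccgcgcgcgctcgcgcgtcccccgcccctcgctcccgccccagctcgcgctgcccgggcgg

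Of the 12 tested mitotic kinesins, 9 had a CHR match in a window, 2 more (KIF20A and KIF2C) had only the variant, and KIF22 had neither. The CHR was found in 18.2% of the 27305 genes with a window and in 15.2% of all windows. The CHR or its variant was found in 27.9% of genes and 24.0% of windows. In those 9 genes the CHR lay between position −55 (KIF23) and position 36 (KIF20B), counted from the start as position 1. A CCAAT box was present in 10 of the 12, in 39.7% of all genes and in 34.6% of all windows. Of the 10 tested transport kinesins with a window, 1 (KIF5B) had a CHR match, at −140, and 1 (KIF16B) had the variant, at −241. A CCAAT box was present in 4 of the 10. None of the tested ciliary or mixed kinesins with a window (3 and 2 genes) had a CHR or variant match. A match describes these letters only. Whether any factor binds there was not measured.

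**Figure D2:**
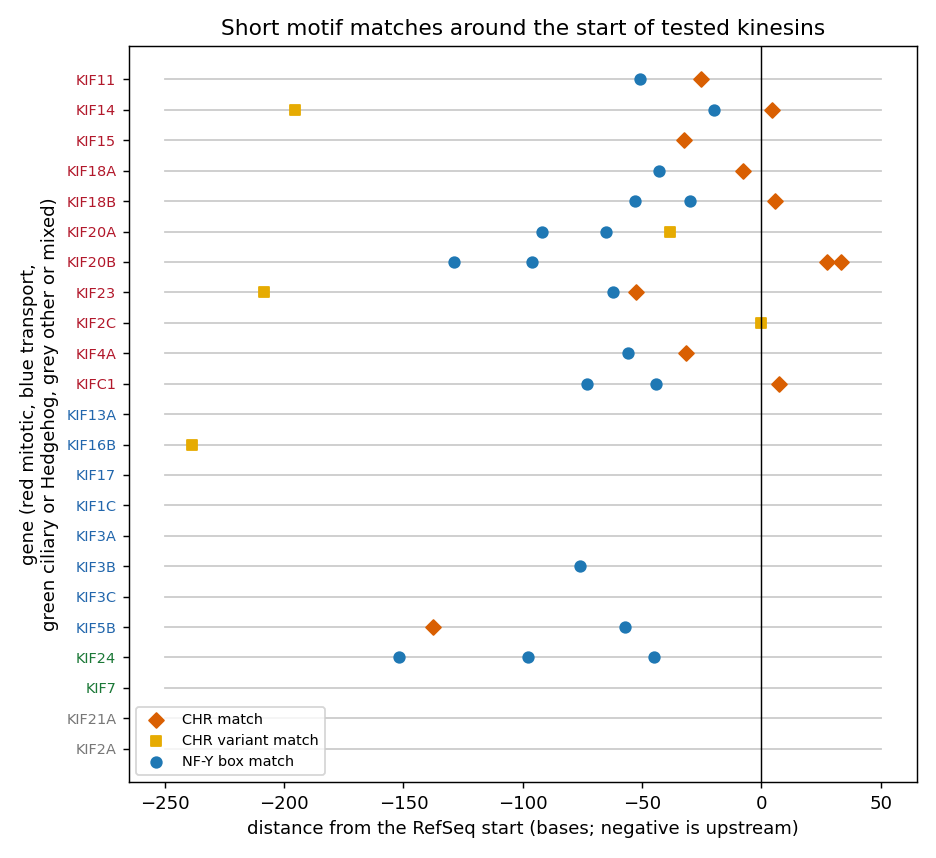
Matches to the CHR (diamonds), its variant (squares) and the NF-Y box (circles) are plotted by distance from the RefSeq start for the 23 tested kinesins with a single window (11 mitotic, 8 transport). Each of the 11 mitotic rows holds a CHR or variant match within 60 bases of the start, and the transport rows have theirs only far upstream, in KIF5B and KIF16B.

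The 14 tested transport kinesins had a median log2 fold change of −0.12, with 10 negative and 4 positive, and ranged from −0.42 for KIF5A to 0.38 for KIF5C. Without shCtrl 3, 3 of the 14 fell and 1 rose (median −0.19), beside 17% and 17.8% of all genes. Groups did not overlap for 2 of the 34 tested kinesins that were lower in the knockdown (KIF1C and KIF3C), beside 8.43% of all genes, and for 2 that were higher (KIF5C and KIF2A), beside 7.33%.

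The conventional kinesins carry organelles on heavy-chain dimers. KIF5B, the ubiquitous heavy chain, was at 227, 213 and 178 CPM with the control hairpin against 213, 184 and 191 CPM with the DNAJC2 hairpin, and the groups overlapped. KIF5A, better known from neurons, was at 23.9, 20.01 and 13.7 CPM against 12.7, 13.5 and 16.6 CPM. Its shCtrl 3 value lay within the knockdown range, and without that library it fell by 0.61. KIF5C stayed between 0.962 and 1.62 CPM, with every knockdown library above every control, and its log2 fold change of 0.38 had a 95% interval of −0.19 to 0.96.

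In the KIF1, KIF13 and KIF16 group of cargo motors, KIF1C kept shCtrl 3 with the other controls. KIF1C, which moves dense-core vesicles and integrins, was at 239, 241 and 251 CPM with the control hairpin against 189.7, 215 and 208 CPM with the DNAJC2 hairpin. All 3 controls lay above all 3 knockdown libraries. Its log2 fold change was −0.26 (95% interval −0.50 to −0.01, adjusted p = 0.429 in edgeR), and by exact permutation (two-sided) p was 0.1, below which a design of 3 libraries a group cannot go. KIF1B, which carries mitochondria and synaptic vesicle precursors, was at 83.5, 80.6 and 59.2 CPM against 66.1, 60.4 and 62.3 CPM, and fell by 0.38 without shCtrl 3. KIF16B, a motor of early endosomes, was at 13.6, 13.3 and 7.82 CPM against 9.34, 8.49 and 11.7 CPM. KIF13A, which moves recycling endosomes, ranged from 55.4 to 66.2 CPM and KIF13B from 19.4 to 22.0 CPM over the 6 libraries, and for both genes the groups overlapped. KIF1A, a neuronal vesicle motor, had 0 to 14 counts and was not tested.

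Of the KIF3 motors, KIF3C separated the groups, at 35.3, 38.8 and 34.1 CPM with the control hairpin against 26.5, 30.7 and 29.7 CPM with the DNAJC2 hairpin. Its log2 fold change was −0.32 (95% interval −0.58 to −0.05), and it fell by 0.35 without shCtrl 3. KIF3A, with which KIF3C can pair, and KIF3B, with which KIF3A forms the motor of intraflagellar transport, did not separate them. KIF3B was at 72.3, 71.5 and 61.6 CPM against 64.2, 60.9 and 69.7 CPM, and KIF3A ranged from 9.04 to 15.7 CPM. KIF17, a homodimer of the same class, was at 1.76, 2.14 and 4.64 CPM with the control hairpin against 3.91, 3.35 and 2.43 CPM with the DNAJC2 hairpin.

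KIFC2 and KIFC3 are related to the minus-end motor KIFC1. KIFC3, which acts at adherens junctions and in apical transport of epithelial cells, was at 104, 106 and 219 CPM with the control hairpin against 147, 183 and 158 CPM with the DNAJC2 hairpin. It was thus highest in shCtrl 3, at 208% of the mean of shCtrl 1 and shCtrl 2, and it rose by 0.63 without that library (95% interval 0.37 to 0.90). KIFC2 was at 16.3, 13.8 and 12.3 CPM against 8.25, 9.33 and 17.8 CPM, and the highest library was shDNAJC2 3. In GENCODE 29, 17.8% of the exonic bases of KIFC2 overlap FOXH1 on the other strand.

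Set side by side in each library, the mean log2 CPM of the 12 mitotic kinesins exceeded that of the 14 transport kinesins by 1.88, 1.93 and 1.06 in the control libraries (1, 2, 3) and by 1.23, 1.12 and 1.38 in the knockdown libraries. Averaged by group this gave 1.62 ± 0.48 and 1.24 ± 0.13 (SD, n = 3 each), and their difference of −0.38 was smaller than the SD of the controls. The same difference taken on the scale per transcript length was also −0.38. A fixed length per gene nearly cancels between groups on the log scale, so this is no separate support. The values of shCtrl 1 and shCtrl 2 were the highest and that of shCtrl 3 the lowest of all 6. Most of the spread came from the mitotic mean, which was at 6.74, 6.75 and 5.81 in the controls and at 5.93, 5.81 and 6.19 in the knockdown. The transport mean stayed between 4.69 and 4.86 in all libraries.

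**Figure D3:**
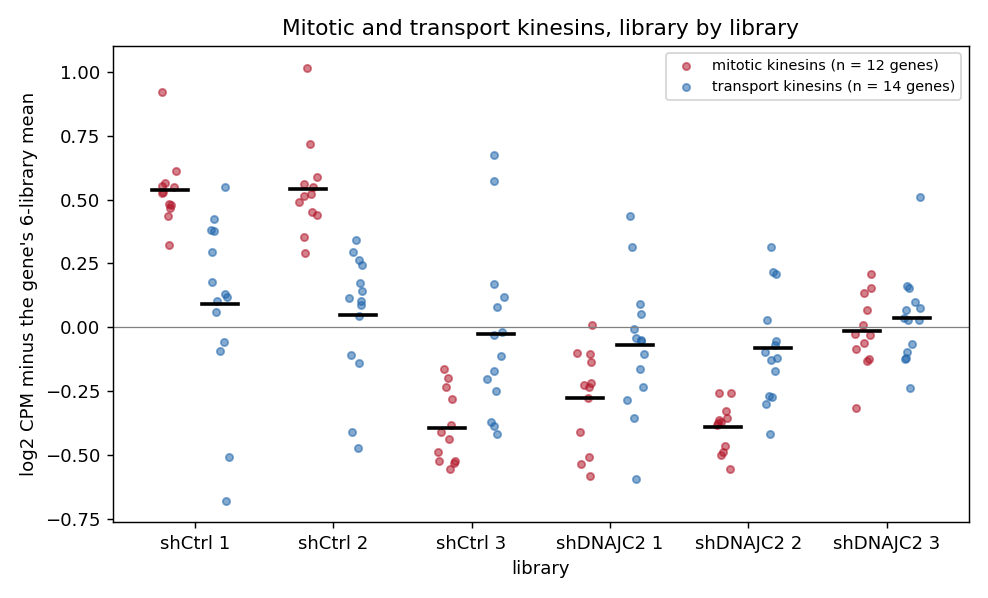
Points are genes (12 mitotic, 14 transport), the vertical axis is log2 CPM minus the gene's 6-library mean, and black bars are means over the genes of a class in that library. The mitotic bars lie at 0.54 in shCtrl 1 and shCtrl 2 and between −0.39 and −0.02 in the other 4 libraries, while the transport bars stay between −0.08 and 0.09.

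Mitotic kinesins took 57.8% (exact 95% binomial interval 57.4 to 58.2%), 59.0% (58.6 to 59.4%) and 41.7% (41.2 to 42.1%) of the kinesin counts in shCtrl 1, 2 and 3. They took 44.9% (44.4 to 45.4%), 43.2% (42.6 to 43.8%) and 48.5% (48.1 to 49.0%) in shDNAJC2 1, 2 and 3. The intervals cover counting error only, and the libraries of a group differed by far more than that. The group means, 52.8 ± 9.67% and 45.5 ± 2.71% (SD, n = 3 each), came from overlapping ranges. In summed CPM, mitotic kinesins came to 1459 and 1507 in shCtrl 1 and shCtrl 2 and to between 768 and 960 in the other libraries, and transport kinesins lay between 837 and 938 in all 6.

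Levels of different genes were compared per length, as counts divided by the longest annotated transcript and scaled to the same sum in every library. On this scale the most abundant kinesins by their 6-library mean were KIF2C (134), KIF22 (132), KIFC3 (117), KIF20A (113) and KIFC1 (108), followed by KIF5B (91.7), KIF23 (87.0) and KIF1C (75.6). The libraries spread these widely. KIF2C ranged from 103 to 189 and KIF20A from 62.6 to 210, so the order of these genes was not the same in every library. Mitotic kinesins made up 68.9% and 70.2% of the summed per-length level in shCtrl 1 and shCtrl 2, 52.4% in shCtrl 3 and 55.1, 53.6 and 58.8% in the knockdown libraries.

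**Figure D4:**
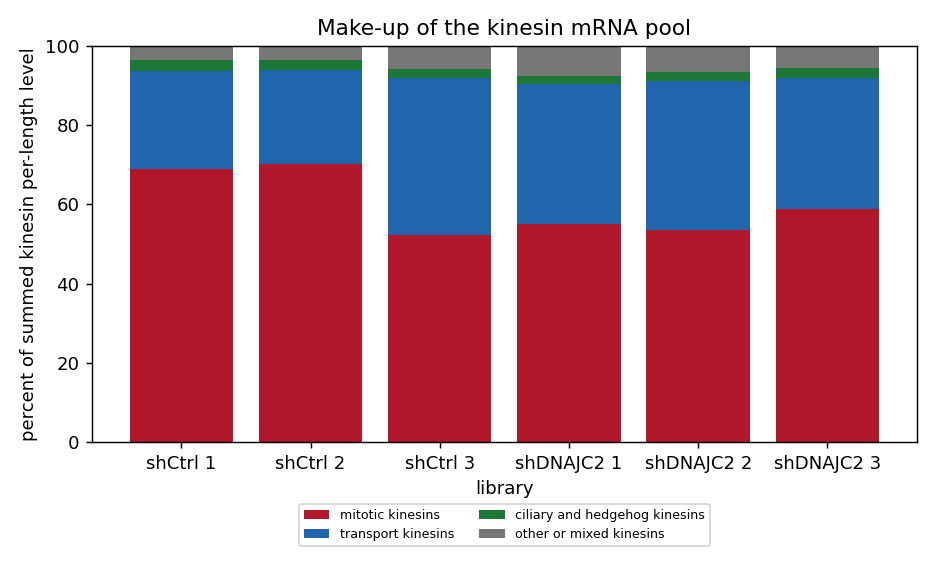
Stacked bars show, for each library, the percentage of the summed per-length kinesin level that falls to each class. The mitotic share is 68.9 and 70.2% in shCtrl 1 and shCtrl 2 and between 52.4 and 58.8% in the other libraries, and the transport share runs from 23.6% in shCtrl 2 to 39.4% in shCtrl 3.

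Among the kinesins of cilia and Hedgehog signalling, KIF7 differed most. KIF7 (chromosome 15, 89608789 to 89655451) caps ciliary microtubule tips and regulates GLI factors. It was at 44.6, 43.7 and 20.3 CPM with the control hairpin against 14.6, 17.0 and 24.4 CPM with the DNAJC2 hairpin, so that shDNAJC2 3 overlapped shCtrl 3. Its log2 fold change was −0.95 (95% interval −1.76 to −0.15, adjusted p = 0.429 in edgeR), close in size to that of KIF20A, and without shCtrl 3 it fell by 1.23. The replication gene TICRR overlaps 11.8% of its exonic bases on the other strand and, named after its values were seen, was at 46.2, 49.5 and 31.0 CPM against 26.5, 26.9 and 37.3 CPM. The sources used here do not state whether counting used strand, so reads of the 2 genes cannot be told apart where they overlap. KIF24, which remodels microtubules at the mother centriole, was at 22.3, 25.0 and 15.3 CPM against 16.1, 15.1 and 19.7 CPM and fell by 0.47 without shCtrl 3. KIF9 ranged from 6.32 to 8.02 CPM and KIF27 from 3.17 to 4.02 CPM, with overlapping groups. KIF6 had at most 9 counts and KIF19 at most 1 count in any library, and neither was tested.

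Of the other or mixed kinesins, 4 of 4 tested had a positive log2 fold change (median 0.31), where 52.3% of all tested genes were negative. The 95% interval lay above 0 for KIF2A alone. KIF2A, a depolymerase that works in spindles and in neurons, was the only kinesin with a mean of at least 5 CPM that was higher in every knockdown library than in every control. It was at 71.5, 71.7 and 76.3 CPM with the control hairpin against 99.6, 85.6 and 82.4 CPM with the DNAJC2 hairpin, a log2 difference of 0.29 (95% interval 0.03 to 0.54, adjusted p = 0.429 in edgeR), and it rose by 0.32 without shCtrl 3 (adjusted p = 0.0497). Its close relative KIF2C had a log2 fold change of −0.43 over the same libraries. In GENCODE 29, 8.97% of the exonic bases of KIF2A overlap IPO11 on the same strand.

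KIF21B, which pauses microtubule growth and is best known from neurons and lymphocytes, had the largest ratio of its highest to its lowest library among the tested kinesins. It was at 2.25, 1.99 and 19.1 CPM in the control libraries against 10.2, 12.8 and 10.9 CPM in the knockdown. The highest level was therefore in a control library, at 902% of the mean of the other controls. Over all libraries its log2 fold change of 0.54 had a 95% interval of −1.44 to 2.52, and without shCtrl 3 it rose by 2.42. KIF26B, an atypical kinesin of adhesion and polarity, was at 0.779, 0.802 and 2.97 CPM against 1.98, 2.39 and 0.995 CPM, so that shCtrl 3 was its highest library too. KIF21A stayed between 1.23 and 2.27 CPM. KIF12, KIF25 and KIF26A had at most 7 counts in any library and were not tested.

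**Figure D5:**
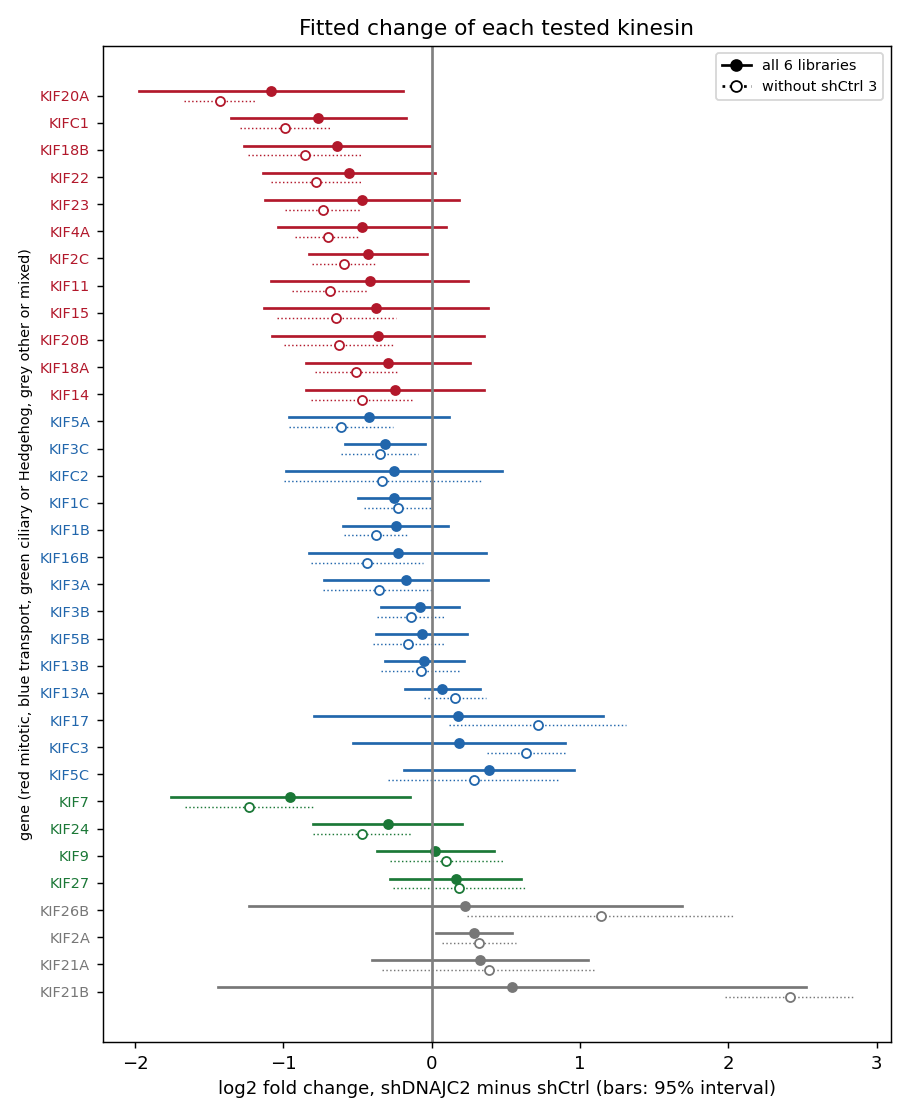
For each of the 34 tested kinesins, filled points with solid bars are log2 fold changes (shDNAJC2 minus shCtrl) over all 6 libraries and open points with dotted bars those without shCtrl 3, with 95% intervals. Leaving out shCtrl 3 moved every mitotic gene further below 0, KIF20A from −1.08 to −1.43, and moved KIF21B from 0.54 to 2.42.

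The partners of these motors were read from the same fit, with counts in place of a test of each list, and limma-voom, and DESeq2 where it gave an adjusted p, called 0 genes in every list given here. Shares of all genes to set beside these counts are 7.33% lower and 4% higher at an unadjusted p under 0.05, and 17% that fell and 17.8% that rose without shCtrl 3. Of 19 genes whose products work with mitotic kinesins, 19 had a negative log2 fold change (median −0.45), where 52.3% of all tested genes were negative. Of these 19, 0 were called over all libraries, 5 had an unadjusted p under 0.05, and 19 fell without shCtrl 3. In 2 of the 19, beside 8.43% of all genes, the groups did not overlap and the knockdown was lower. PLK1, the kinase that docks on KIF20A, was at 220.1, 230.4 and 147 CPM with the control hairpin against 127, 131 and 139 CPM with the DNAJC2 hairpin, without overlap. CDCA8 and INCENP are passenger complex subunits that KIF20A moves, and for both the groups overlapped. In shCtrl 3 they were at 74.1 and 66.7 CPM, against 67.7 to 78.3 and 51.3 to 76.7 CPM in the knockdown. Both had an adjusted p of 0.429 in edgeR over all libraries, and they fell by 0.88 and 0.95 without shCtrl 3. Of 21 tested light chains and adaptors of transport kinesins, 15 were negative (median −0.09), 0 were called, 0 had an unadjusted p under 0.05, and 2 fell and 0 rose without shCtrl 3. Of 23 tested genes of dynein and dynactin, the opposing motor, 14 were negative (median −0.11), 0 were called, 2 were lower at an unadjusted p under 0.05, and 6 fell and 0 rose without shCtrl 3. In 6 of the 23, beside 8.43% of all genes, the groups did not overlap and the knockdown was lower, among them the dynactin gene ACTR1A with 240.5, 260.2 and 210.3 CPM against 185, 196 and 197 CPM. The dynactin gene DCTN1 was at 259, 266 and 189 CPM against 154, 167 and 197 CPM.

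Genes of the earlier cell cycle had mixed signs. Of 16 genes of the G1/S transition, 11 were positive and 5 negative (median 0.07), 0 were called, 0 had an unadjusted p under 0.05, and without shCtrl 3, 1 rose and 1 fell, beside 17.8% and 17% of all genes. The replication licensing gene CDC6 was at 87.6, 94.6 and 138 CPM with the control hairpin against 152, 142 and 121 CPM with the DNAJC2 hairpin, and it was the member that rose without shCtrl 3 (0.60). Of 17 regulators of mitotic transcription, 9 were positive and 8 negative (median 0.04), 0 were called, 1 was higher and 1 lower at an unadjusted p under 0.05, and without shCtrl 3, 4 rose and 3 fell, beside the same shares. MYBL2, which joins MuvB at CHR promoters, separated the groups, at 98.8, 112 and 93.3 CPM with the control hairpin against 71.3, 80.0 and 81.0 CPM with the DNAJC2 hairpin. RBL1, a pocket protein of the DREAM complex, separated them the other way, at 53.3, 51.4 and 54.4 CPM against 68.3, 60.5 and 61.0 CPM. These were the only regulators of the 17 without overlap, 1 lower and 1 higher, beside 8.43% and 7.33% of all genes. FOXM1, which activates late cell-cycle genes, was at 244, 256 and 185 CPM against 163, 167 and 201 CPM, with overlap. The difference between these lists and the mitotic kinesins was not tested.

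GC content of the longest transcript had a median of 44.3% over the tested mitotic kinesins and 49.5% over the transport kinesins, against 48.5% for all genes tested. With the GC trend of each library removed, the median log2 fold changes were −0.50 and −0.13, and KIF20A was at −1.11, KIFC1 at −0.61 and KIF7 at −0.72. MYBL2 was then at −0.18 and RBL1 at 0.13, beside −0.39 and 0.25 without that step. KIF1C, KIF3C and KIF2A were then at −0.16, −0.21 and 0.19, beside −0.26, −0.32 and 0.29 without it. Their unadjusted p in edgeR with the trend removed was 0.098, 0.073 and 0.086.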

How the data were processed

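The deposited table held raw read counts per gene for 6 paired-end Illumina libraries of enriched mRNA, with no normalization by the authors, as the whole numbers and unequal totals showed. The submitters' processing notes name GRCh38 (hg38). An aligner, counter, annotation or strand setting is not given in the sources used here. Columns were matched to libraries by title, and totals were 17491462 to 25760291 counts per library. The knockdown was set against the control in edgeR 4.0.16, under R 4.3.3 (quasi-likelihood F test, two-sided, TMM, filterByExpr, group as the only term), adjusted by Benjamini-Hochberg over all genes tested at a threshold of 0.05. CPM were scaled by TMM, with a prior count of 2 where logged. Alternatives were DESeq2 1.42.0, limma-voom 3.58.1, other scaling and filters, a replicate block, removal of the GC trend and leaving out each library. Gene coordinates, lengths and GC content came from GENCODE 29 (GRCh38), which matched 20279 of 20532 genes. Scripts were tested on simulated data. The family was given by a name pattern, and the roles and other lists were chosen with earlier results of these data known. Kinesins that passed the filter with a mean of at least 5 CPM, and all mitotic kinesins, could be named with all values, and the others with their range, except that low kinesins whose values are given in full were chosen after they were seen. From each other list up to 3 members with the smallest p could be named.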

Additional observations from a re-analysis of the deposited data

How the results depend on the processing

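Over the 14 other settings none of the 12 tested mitotic kinesins changed sign, and the median of their log2 fold changes stayed between −0.69 and −0.29. edgeR called 0 genes higher and 0 lower under every setting but one, leaving out shCtrl 3, so that leaving out each library in turn gave 0 to 2532 genes higher, 0 to 2413 lower, 0 to 3 kinesins higher and 0 to 17 lower. limma-voom called 0, and DESeq2 called 6 genes higher and 29 lower, with 0 of the 26 kinesins that had an adjusted p there. DNAJC2 was at −0.74 in edgeR (adjusted p = 0.429), at −0.75 in limma-voom (adjusted p = 0.455) and at −0.73 in DESeq2 (adjusted p = 0.0364). Leaving out each library in turn, it lay between −0.81 and −0.60 in edgeR. The transport median lay between −0.19 and −0.041 leaving out each library in turn. The mitotic minus transport difference was −0.66 without shCtrl 3 and −0.23 without shCtrl 2, and the cause was not tested. Signs turned in 8 genes, none of them called. With the GC trend removed KIF13B was at 0.044, KIFC2 at 0.022 and KTN1 at −0.0067, and with library totals only KIF9 was at −0.016. Leaving out each library in turn gave −0.060 to 0.72 for KIF17, −0.073 to 1.14 for KIF26B, −0.36 to 0.026 for KIF3A, −0.16 to 0.020 for KIF5B and −0.034 to 0.13 for KIF9.

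The replicate numbers are shared between the groups. Deviations from the group means correlated at −0.38, −0.52 and −0.66 for numbers 1, 2 and 3, and at 0.67 for shCtrl 1 with shDNAJC2 3. Since shCtrl 3 and shDNAJC2 3 each lay apart from their group, these correlations cannot show whether libraries were paired. With number as a replicate block edgeR called 0 genes and 0 kinesins, and the mitotic median was −0.41 and the transport median −0.11. The 8 kinesins that were not tested had at most 14 counts in any library.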
